A study of Mus musculus with 24 samples.

Results

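The mitochondrial genome of the mouse contributed 37 of the 52178 genes in the count table, chosen as every row whose symbol starts with mt-. They were 13 protein genes, 2 ribosomal RNA (rRNA) genes and 22 transfer RNA (tRNA) genes. The GENCODE annotation (GRCm38) places 28 of them on the plus strand of the mitochondrial chromosome (12 protein, 2 rRNA and 14 tRNA genes) and 9 on the minus strand (mt-Nd6 and 8 tRNA genes). Their RNA was measured in 24 libraries of cartilage explants from C57/BL6 mice (C57/BL6J in the study's methods). Hip caps, the femoral heads of male mice aged 4 weeks, were pooled as 2 caps of 1 mouse a sample, and metatarsals as 6 bones of embryos at embryonic day 15, whose sex was not known. All explants were cultured for 24 hours, held for 1 hour at 0, 5 or 50 MPa of hydrostatic pressure and cultured for another 24 hours. Each of the 6 groups had 4 libraries, and the libraries at 0 MPa are called controls.

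The mitochondrial chromosome is transcribed from both strands into long precursors, which are cut into rRNAs, mRNAs and tRNAs. The tRNA genes lie between most of the other genes and mark where the precursors are cut. The protein genes encode subunits of complexes I, III, IV and V of the respiratory chain, while nuclear genes encode the remaining subunits and the proteins that copy, transcribe and process the mitochondrial genome. Chondrocytes of articular cartilage are known to rely largely on glycolysis but keep respiring mitochondria.

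Library totals ran from 4185263 to 25104258 counts. Here 6 libraries count as unstranded, prepared without strand information. They were control hip cap replicate 3, the 4 hip caps at 50 MPa and metatarsal replicate 4 at 50 MPa. The study's methods describe library construction as strand specific, but its model took the strandedness of libraries as a possible batch effect. Which libraries were unstranded is not stated in those methods. Control hip cap replicate 4 and 50 MPa hip cap replicate 2 were left out by the study as outliers, so tests used 22 libraries, and levels are given for all 24. Sequencing runs were taken from a colour strip in a figure of the study, which gives 9 and 15 libraries, and are uncertain because the methods state another split. By that strip, the first run held the tested control hip caps and every hip cap exposed to 50 MPa, and the second held every hip cap exposed to 5 MPa. Between hip caps at 50 and 5 MPa, run and library type therefore cannot be told apart from pressure. The tested controls share the run of the hip caps at 50 MPa, but only control replicate 3 shares their library type, and they differ in run from all hip caps at 5 MPa. The terms for run and library type rest on few libraries. Nothing in the sources used here gives whether rRNA depletion also covered mitochondrial rRNA. By the study's methods, RNA integrity values lay below the ideal minimum in all samples, and the authors propose some partial degradation. The part of RNA quality in the values below was not tested.

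The sequences below are of tRNA genes whose counts differed most between library types and of plus-strand tRNA genes for comparison, as RNA-sense DNA from the GENCODE transcripts on GRCm38, with the bases that a gene on the other strand also covers in capitals. mt-Ts1 reads codons of serine, mt-Ty of tyrosine, mt-Tc of cysteine, mt-Tn of asparagine, mt-Tm of methionine and mt-Tl1 of leucine. Serine and leucine each have another tRNA gene among the members, mt-Ts2 and mt-Tl2.
mt-Ts1, chrM:6870-6938, minus strand: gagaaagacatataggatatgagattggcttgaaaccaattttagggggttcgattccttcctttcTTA
mt-Ty, chrM:5260-5326, minus strand: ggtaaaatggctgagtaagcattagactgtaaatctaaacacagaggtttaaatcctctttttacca
mt-Tc, chrM:5192-5257, minus strand: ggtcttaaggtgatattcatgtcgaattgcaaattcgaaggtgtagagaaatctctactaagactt
mt-Tn, chrM:5089-5159, minus strand: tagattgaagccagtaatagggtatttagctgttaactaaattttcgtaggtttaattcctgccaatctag
mt-Tm, chrM:3845-3913, plus strand: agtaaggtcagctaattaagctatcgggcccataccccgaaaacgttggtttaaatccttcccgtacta
mt-Tl1, chrM:2676-2750, plus strand: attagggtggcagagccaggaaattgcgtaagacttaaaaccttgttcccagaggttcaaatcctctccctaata

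Of 9 overlapping pairs of members, 3 lay on opposite strands, and mt-Co1 and mt-Ts1 shared the 3 bases in capitals above. The longest overlap joined mt-Atp8 and mt-Atp6, subunits of ATP synthase, whose counts depend on how reads from 43 shared bases were assigned.

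The share of all counts taken by the 37 genes had its lowest group median, 0.711%, in control hip caps. In control hip caps, replicates 1 to 4 in this order here and below, it was 0.267, 2.05, 0.114 and 1.16%. At 5 MPa it was 2.53, 2.82, 3.2 and 3.26%, above all 4 controls. At 50 MPa it was 0.961, 0.353, 2.54 and 1.1%, within the range that the controls span except for replicate 3. In metatarsals controls had 6.38, 4.67, 3.22 and 3.6%, explants at 5 MPa 4.04, 3.39, 4.25 and 4.66% and explants at 50 MPa 4.17, 3.36, 4.41 and 2.83%, and the 3 groups overlapped. The widest 95% Wilson interval of these shares was 0.0468 percentage points, for counting error only. Control hip caps differed among themselves by far more than that. A gene outside the 37 took 40.0, 40.6, 25.1 and 15.4% of all counts in control hip caps, which lowers the shares of the others. It took 31.3, 17.3, 26.1 and 30.5% at 5 MPa and 32.4, 4.83, 20.0 and 14.4% at 50 MPa. With counts of protein-coding genes as the denominator, control replicate 2 had 6.11%, above the 5.31% and 4.39% of replicates 1 and 2 at 5 MPa, so that these groups overlapped. In bulk RNA, fewer cells of a type and less RNA per cell cannot be told apart.

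**Figure D1:**
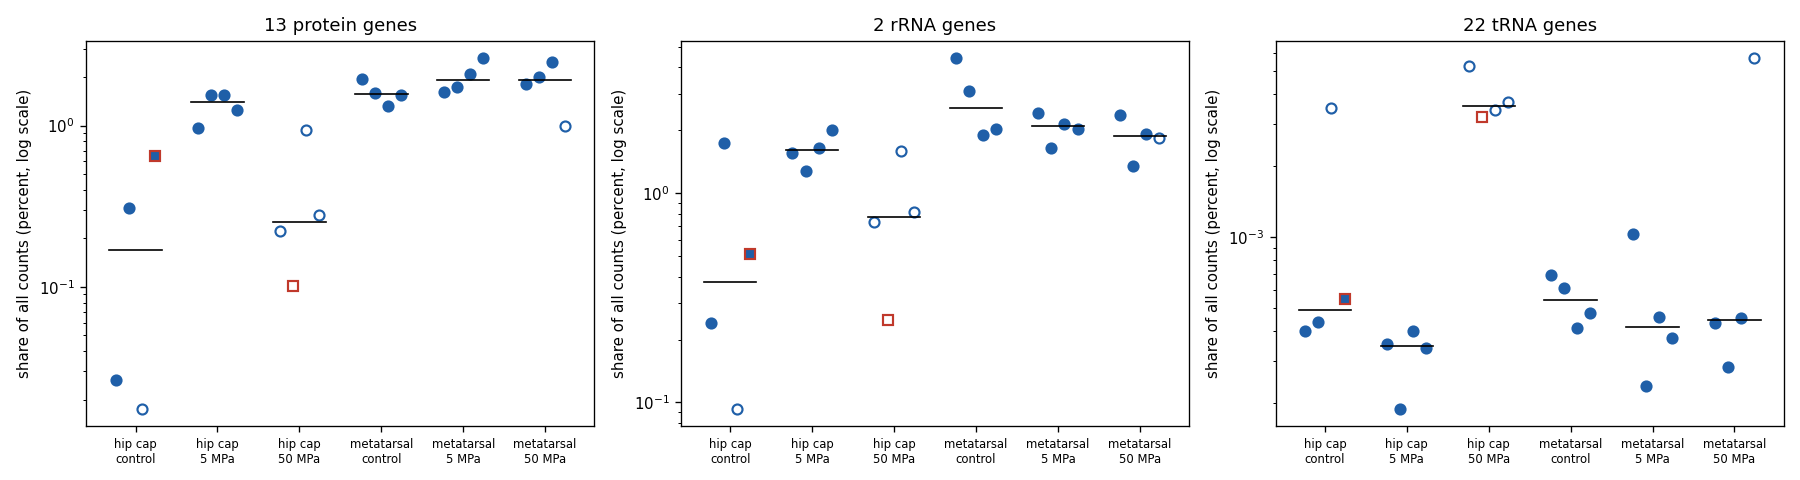
Share of all counts (percent, log scale) taken by the protein, rRNA and tRNA genes in each of the 24 libraries, with filled points for stranded and open points for unstranded libraries, red squares for the 2 libraries the study left out and a line at the group median. The lowest protein shares, 0.0176% and 0.0264%, were in control hip cap replicates 3 and 1, and the tRNA share was highest in the 6 unstranded libraries.

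Protein and rRNA genes did not keep one ratio. The protein genes took 0.0264, 0.31, 0.0176 and 0.644% of counts in control hip caps, 0.968, 1.54, 1.54 and 1.25% at 5 MPa and 0.223, 0.101, 0.935 and 0.281% at 50 MPa. Control hip caps and hip caps at 5 MPa did not overlap, and those at 50 MPa fell among or above the controls. The rRNA genes had 9.08, 5.62, 5.31 and 0.792 counts per protein gene count in control hip caps, 1.61, 0.826, 1.07 and 1.62 at 5 MPa and 3.28, 2.47, 1.71 and 2.89 at 50 MPa. In metatarsals the ratio ran from 0.669 to 2.28 over all 12 libraries. Control hip cap replicate 4, the only control hip cap of the second run, had a ratio of 0.792, beside 0.826 to 1.62 in the hip caps at 5 MPa of the same run and library type, and its protein share of 0.644% stood below their lowest, 0.968%.

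Among single genes, levels are counts scaled to library size with TMM factors over the 24 libraries (CPM). mt-Rnr1, the 12S rRNA of the small ribosomal subunit, had 1309, 13752, 490.3 and 5076 CPM in control hip caps, 9432, 6187, 10591 and 11607 at 5 MPa and 4479, 1592, 7556 and 7862 at 50 MPa. mt-Rnr2, the 16S rRNA of the large subunit, had 2952, 17586, 807 and 2293 CPM in control hip caps, 8638, 4902, 8486 and 12352 at 5 MPa and 5948, 1791, 7151 and 10583 at 50 MPa. The groups overlapped for both rRNAs, and control replicate 2 was higher than every pressurised hip cap.

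mt-Co1, the catalytic subunit of cytochrome c oxidase (complex IV), had the highest CPM of the protein genes. It measured 176, 1909, 66.4 and 3219 CPM in control hip caps, 3140.0, 3750.3, 4857 and 3677 at 5 MPa and 940.1, 371, 2398 and 2556 at 50 MPa. Control metatarsals had 3700.2, 3473, 2959 and 3624 CPM. Control hip cap replicates 1 and 3 were the lowest of all 24 libraries. mt-Cytb, the only mitochondrially encoded subunit of complex III, had 43, 728, 16.2 and 1248 CPM in control hip caps, 1427, 1368, 2268 and 1895 at 5 MPa and 294, 163, 862 and 733 at 50 MPa. For mt-Cytb the hip caps at 5 MPa were above all 4 controls and those at 50 MPa overlapped them.

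On the minus strand, mt-Nd6, a subunit of complex I (NADH dehydrogenase), had 8.45, 165, 4.81 and 79.1 CPM in control hip caps, 113, 87.9, 118 and 174 at 5 MPa and 68.8, 70.8, 199 and 205 at 50 MPa. Control metatarsals had 164, 163, 113 and 85.1 CPM. Its counts were 7.63% to 39.4% of those of mt-Nd5, which overlaps it by 14 bases on the plus strand. In the unstranded libraries, among them all hip caps at 50 MPa, mt-Nd6 reads cannot be told from plus-strand RNA across the same bases.

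Per length, with the nuclear copies described below added, mt-Co1 ranked first of the 13 protein genes in both tissues, with a median of 1875 CPM per kb in the 10 tested hip caps and 2253 in the 12 metatarsals. mt-Nd6 ranked last in both, with medians of 222 and 270.3 CPM per kb. By group, mt-Nd6 ranked 12 of 13 in control hip caps (16.3 CPM per kb), 13 at 5 MPa (222) and 8 at 50 MPa (384), and 13 in each metatarsal group. All hip caps at 50 MPa were unstranded and all at 5 MPa stranded, so library type cannot be told apart from pressure in these ranks. mt-Co2 ranked second in both tissues, and the ranges of neighbours in the order overlapped in each tissue. mt-Rnr1 had a median of 8073 CPM per kb in hip caps and 8105 in metatarsals.

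**Figure D2:**
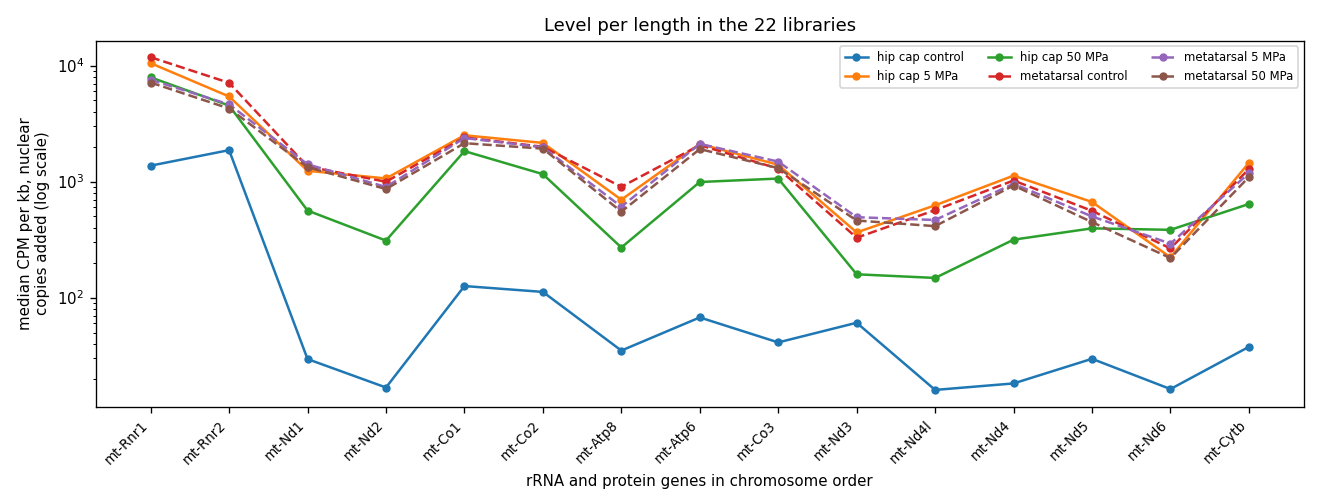
Median CPM per kb (log scale) of the rRNA and protein genes in chromosome order, by group, over the 22 tested libraries, with counts of nuclear copies added. Control hip caps lay lowest at all 15 genes, and hip caps at 50 MPa were next lowest at 12 of 15.

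Counts were also assigned to nuclear copies of the protein genes. Chromosome 1 holds 7 unprocessed pseudogenes in the stretch chr1:24611535-24616197 (GRCm38, minus strand) that shared 97.2% to 100% of their 31-base words with the mitochondrial chromosome. They are Gm28439 (a copy of mt-Nd4), Gm10222 (mt-Nd4l), Gm28438 (mt-Nd3), Gm28437 (mt-Co3), Gm10925 (mt-Atp6), Gm28661 (mt-Co2) and Gm29216 (mt-Co1). Over the bases aligned, 5 copies had 0 differences from the mitochondrial gene, Gm28438 had 1 (T3C, counted from the first base of mt-Nd3, mitochondrial base first) and Gm29216 had 6. Reads from such bases cannot be assigned to 1 of the genes by sequence.

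mt-Co2, subunit 2 of cytochrome c oxidase, had 76.5, 110.5, 44.4 and 499 CPM in control hip caps, 706, 1390.1, 1304 and 844 at 5 MPa and 349, 162, 899 and 202 at 50 MPa. Its copy Gm28661 had 0, 720.0, 0 and 457 CPM in control hip caps, 607, 0, 362 and 711 at 5 MPa and 0, 0, 0 and 591 at 50 MPa. Summed, they had 76.5, 831, 44.4 and 956 CPM in control hip caps, 1312, 1390.1, 1666 and 1556 at 5 MPa and 349, 162, 899 and 793 at 50 MPa. With the copy added, control replicate 2 fell within the range at 50 MPa and control replicate 4 above it, while the hip caps at 5 MPa remained above all controls. In control metatarsals Gm28661 had 146, 580.5, 189 and 133 CPM, and it was listed at 0 in all 8 pressurised metatarsals. Over all 7 copies, the share of protein and copy counts was highest in control hip cap replicate 2, at 29.0%.

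**Figure D3:**
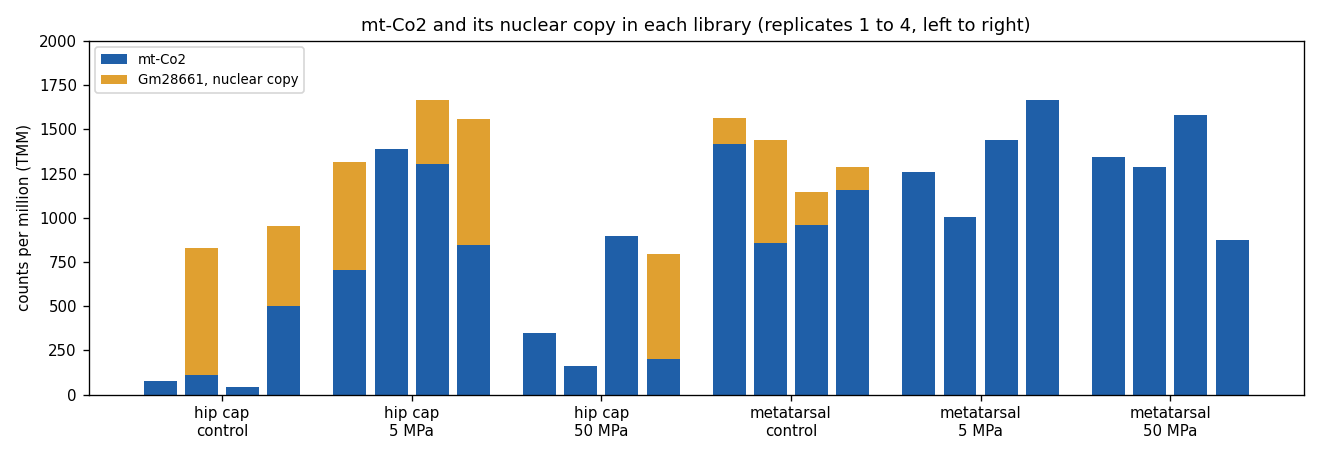
CPM of mt-Co2 (blue) and of its nuclear copy Gm28661 (orange), stacked, in each of the 24 libraries. Control hip cap replicate 2 had 110.5 CPM of mt-Co2 and 720.0 of the copy, and pressurised metatarsals had 0 of the copy.

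The tRNA genes were low, with 24 to 731 counts in all per library, and 10 of the 22 passed the filter on low counts. Those on the minus strand were higher in the unstranded libraries, of which 4 were the hip caps at 50 MPa, so that in hip caps library type overlaps with pressure. The 8 minus-strand tRNA genes had 233 to 708 counts in the 6 unstranded libraries, which was 80.9% to 96.9% of tRNA counts. In the 18 stranded libraries they had 1 to 33 counts, or 3.70% to 36% of tRNA counts. The ranges did not overlap. The 14 plus-strand tRNA genes had 14 to 55 counts in unstranded and 19 to 153 in stranded libraries.

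mt-Ts1 had 0, 10, 275 and 0 counts in control hip caps, 2, 1, 2 and 3 at 5 MPa and 565, 158, 283 and 169 at 50 MPa. In metatarsals it had 0, 3, 3 and 2 counts in controls, 7, 0, 4 and 2 at 5 MPa and 2, 2, 3 and 334 at 50 MPa. The 6 high values were the 6 unstranded libraries. mt-Ty had 0, 0, 61 and 0 counts in control hip caps and 49, 19, 40 and 18 at 50 MPa. Without strand, reads from a minus-strand gene and from plus-strand RNA across the same bases cannot be told apart.

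**Figure D4:**
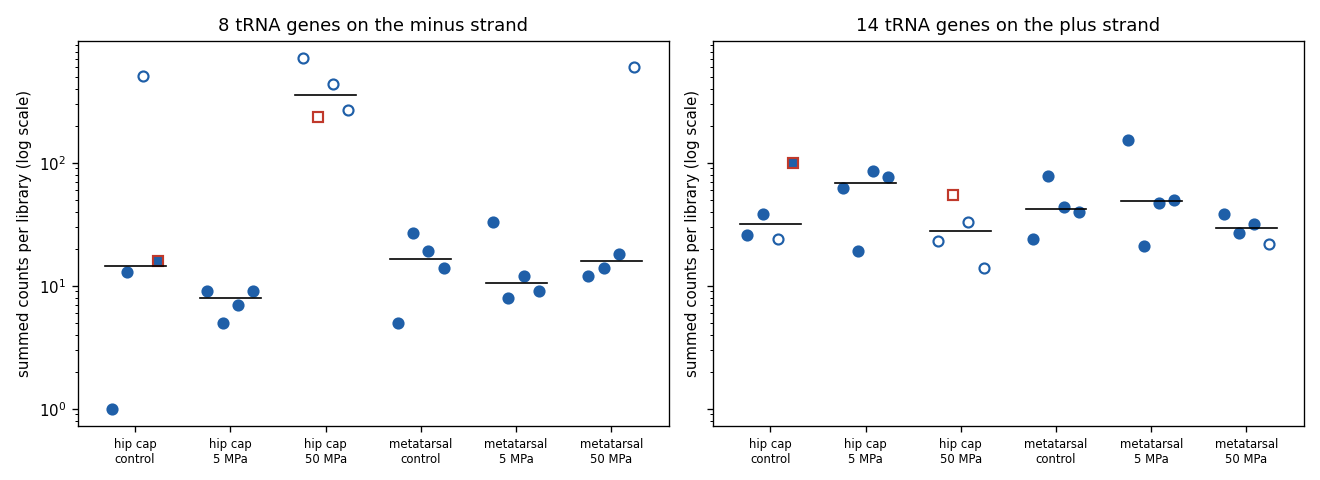
Summed counts (log scale) of the 8 minus-strand and 14 plus-strand tRNA genes in each library, with filled points for stranded libraries, open points for unstranded libraries, red squares for the 2 libraries the study left out and a line at the group median. On the minus strand the 6 unstranded libraries had 233 to 708 counts and the others at most 33.

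Control hip caps were compared with control metatarsals, the articular with the growth plate tissue. Of 25 members tested, 15 were lower in hip caps and 0 higher (edgeR quasi-likelihood test with Benjamini-Hochberg adjustment), beside 15.9% of all 21283 genes tested that were lower and 29.9% called in either direction. They were 12 of 13 protein genes, both rRNAs and mt-Tp. The median log2 difference of the 13 protein genes was -3.31, beside -0.08 over all genes tested. mt-Co2 differed by -3.88 ± 0.46 (adjusted p = 3.44e-06), mt-Atp6, a subunit of ATP synthase, by -4.45 ± 0.85 (adjusted p = 0.000984) and mt-Co3, subunit 3 of cytochrome c oxidase, by -4.00 ± 0.77 (adjusted p = 0.00103). mt-Nd6 was the protein gene without a call (-2.24 ± 1.01, adjusted p = 0.110). In plain levels, 11 of 13 protein genes did not overlap over the 22 libraries, beside 22.7% of all genes tested that were lower, and 7 of 13 did not with control hip cap replicate 4 included, beside 15.1%. mt-Tp, the proline tRNA on the minus strand, was listed at 0, 0, 0 and 5 counts in control hip caps and 3, 11, 11 and 11 in control metatarsals.

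The tissues also differed in the RNA of cell type markers, where fewer cells and less RNA per cell cannot be told apart. Summed markers of skeletal muscle, a tissue rich in mitochondria, ran from 1006 to 2503 CPM in control metatarsals and from 9.50 to 65.2 in control hip caps, and all 10 were lower in hip caps. Summed chondrocyte markers ran from 1459 to 3861 CPM in control metatarsals and from 8405 to 68531 in control hip caps. The values of 8405 and 65.2 were of control hip cap replicate 4, which the tests left out. In the tested control hip caps, chondrocyte markers ran from 42112 to 68531 CPM and muscle markers from 9.50 to 14.8. Of 6 osteoblast markers 5 were higher and 1 lower in hip caps, and of 5 osteoclast markers tested 2 were higher. Macrophage, neutrophil and erythroid markers had 0 calls. Of all genes tested, 14.1% were higher and 15.9% lower. The part of these cells in the difference of mitochondrial genes was not tested. Without terms for run and library type 12 members were lower, beside 22.7% of all genes, and 4 minus-strand tRNA genes (mt-Ta, mt-Tc, mt-Ty and mt-Ts1) were higher, beside 21.7% of all genes. Of the 3 tested control hip caps 1 was unstranded, and all control metatarsals were stranded. With all 24 libraries 5 members were lower (12.9% of all genes), and 4 were without control hip cap replicate 3 (10.1%) or metatarsal replicate 4 at 50 MPa (10.8%).

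At 5 MPa, a pressure in the physiological range, 1 of 25 members tested was higher in hip caps than in controls and 0 lower, beside 0.0094% of all genes that were higher and 0.0188% in either direction. That gene was mt-Co2, with a log2 difference of 3.97 ± 0.52 (edgeR adjusted p = 0.00783). All 13 protein genes had positive values, with a median of 3.74 beside 0.01 over all genes tested, and the 12 others had adjusted p values from 0.109 to 0.330. The rRNAs measured 2.53 ± 0.96 for mt-Rnr1 (adjusted p = 0.247) and 2.02 ± 0.87 for mt-Rnr2 (adjusted p = 0.291). In plain levels, 11 of 13 protein genes were above the controls without overlap over the 22 libraries, beside 8.39% of all genes, and 8 of 13 with control replicate 4 included, beside 2.89%.

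The call of mt-Co2 at 5 MPa depended on its copy and on single libraries. With counts of the nuclear copies added it was 3.06 ± 0.83 (edgeR adjusted p = 0.151), and with all 24 libraries 2.21 ± 0.57 (adjusted p = 0.154). It was lost without control hip cap replicate 3 (adjusted p = 0.0731), control metatarsal replicate 1 (adjusted p = 0.0975) or metatarsal replicate 4 at 50 MPa (adjusted p = 0.0781). Members higher came to 16 without control hip cap replicate 2, where 3.95% of all genes were higher, and to 3 without control hip cap replicate 1 (0.0269%). An alternative chosen after seeing the data took the stranded hip caps of all 24 libraries, with copies added and no batch terms. Its median protein gene difference was 1.37 with 0 members called, and its share of all genes called is not given here.

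At 50 MPa, an injurious pressure, 6 of 25 members tested were higher in hip caps than in controls and 0 lower, beside 3.31% of all genes that were higher, 1.86% that were lower and 5.17% in either direction. All 6 were protein genes. This comparison and the one at 5 MPa share their controls. mt-Co2 differed by 3.48 ± 0.55 (edgeR adjusted p = 0.00878), mt-Nd3 by 3.61 ± 0.88 (adjusted p = 0.0319) and mt-Co3 by 3.93 ± 0.97 (adjusted p = 0.0343). mt-Atp6, mt-Co1 and mt-Nd5, a subunit of complex I, also passed, with adjusted p values of 0.0369, 0.0407 and 0.0463. The median of the 13 protein genes was 3.93, beside 0.02 over all genes tested, and the rRNAs measured 2.74 ± 1.06 for mt-Rnr1 (adjusted p = 0.131) and 2.39 ± 0.94 for mt-Rnr2 (adjusted p = 0.137).

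mt-Nd3 had 19.5, 65.4, 2.13 and 44.1 CPM in control hip caps, 87.9, 127, 127 and 134 at 5 MPa and 17.5, 8.19, 55.3 and 84.7 at 50 MPa. For mt-Co3 the values were 8.45, 147, 27.9 and 725 CPM in control hip caps, 470.3, 1057, 878 and 729 at 5 MPa and 336, 18.2, 832 and 335 at 50 MPa. For mt-Atp6 they were 8.97, 195, 15.2 and 341 CPM in control hip caps, 782, 1254, 1626 and 1254 at 5 MPa and 214, 16.1, 675 and 199 at 50 MPa. Over all 24 libraries the groups overlapped for all 13 protein genes, beside 1.77% of all genes that were higher without overlap, and over the 22 libraries 3 of 13 were above the controls without overlap, beside 8.20% of all genes.

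The fitted difference at 50 MPa was larger than the difference in plain levels. Without terms for run and library type the median of the protein genes was 1.40, and 3 members were higher (mt-Co2, mt-Co3 and mt-Tp), beside 2.07% of all genes. In hip caps of the first run alone it was 1.41 with 0 members called. With all 24 libraries it was 2.28 with 0 called, beside a median of 0.22 over all genes. The shares of all genes called in these fits are not given here, so their counts of 0 are no result about the members. Leaving out control hip cap replicate 3, the unstranded control, gave 1.89 with 0 called, as 0.00454% of all genes were in either direction, and leaving out 50 MPa replicate 3 left 1 call (0.649% of all genes higher). Without control replicate 1, 10 members were higher (3.74% of all genes), and without control replicate 2, 16 (6.92%). Leaving out metatarsal replicate 3 at 50 MPa gave 2 calls (1.65%), and there were 3 calls, with 1.87% to 2.25% of all genes higher, without control metatarsal replicate 3 or 4, 5 MPa metatarsal replicate 1, 3 or 4, or 50 MPa metatarsal replicate 1 or 2.

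**Figure D5:**
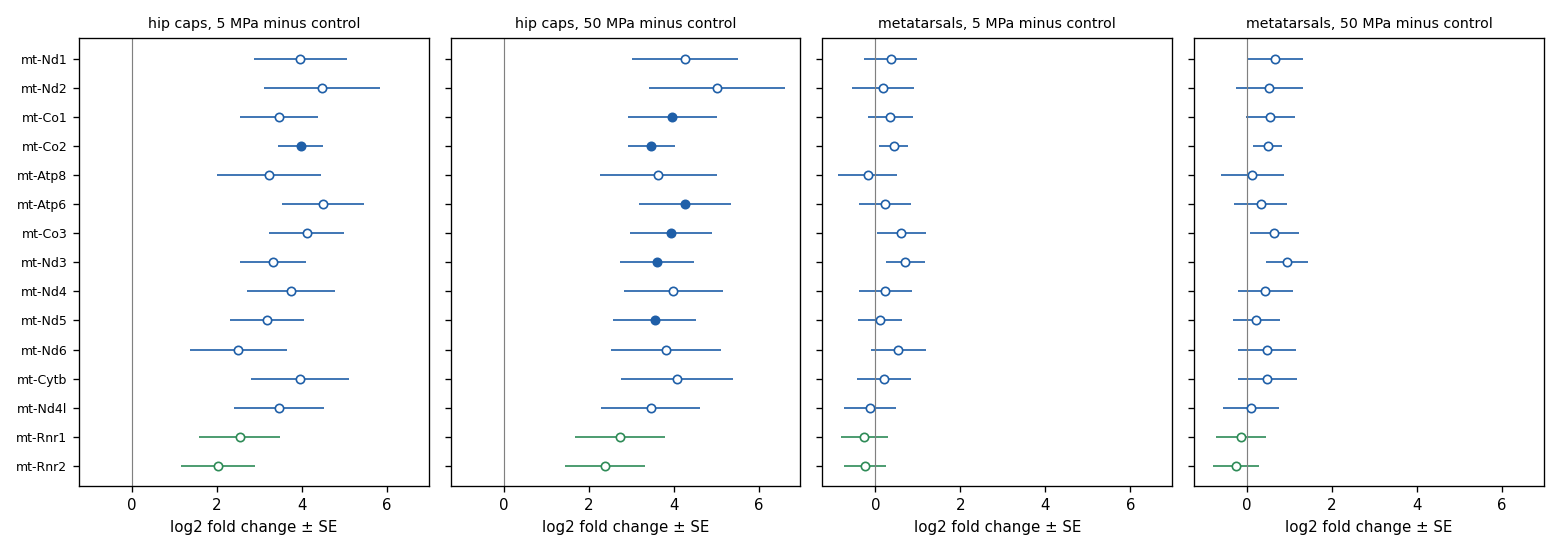
Log2 fold change with its standard error from the edgeR fit of the 13 protein genes (blue) and 2 rRNA genes (green) in the 4 comparisons of pressure with control, filled where the adjusted p was at most 0.05. All 15 values were positive in hip caps, with 1 call at 5 MPa and 6 at 50 MPa, and 0 genes were called in metatarsals. The tRNA genes were left out because of their low counts.

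Between the pressures in hip caps, 0 of 25 members were called, as were 0% of all genes (edgeR, 1016 of 21283 genes at an unadjusted p under 0.05, 0 members among them). The fitted median of the protein genes was 0.30 (50 MPa minus 5 MPa). In plain levels 10 of 13 protein genes were lower at 50 MPa than at 5 MPa without overlap, beside 6.47% of all genes that were lower (2.53% over all 24 libraries, again with 10 of 13), and the median was -1.47 in the fit without batch terms. The sign thus depended on the terms for run and library type, which separate these groups completely. It also turned without control hip cap replicate 2 (-0.48), control hip cap replicate 3 (-0.44), control metatarsal replicate 1 (-0.44) or 50 MPa hip cap replicate 3 (-0.05).

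In metatarsals, edgeR called 0 of 25 members at 5 MPa and 0 at 50 MPa, as it did 0% of all genes (689 and 828 genes at an unadjusted p under 0.05). DESeq2 also called 0 members at each pressure, and its share of all genes called is not given here. Between the pressures 0 members were called. At each pressure against control, 0 members had an unadjusted p under 0.05. The median of the protein genes was 0.23 at 5 MPa and 0.48 at 50 MPa, where it was -0.18 without terms for run and library type. mt-Co2 measured 0.43 ± 0.35 at 5 MPa and 0.48 ± 0.35 at 50 MPa, and mt-Rnr1 measured -0.26 ± 0.54 and -0.15 ± 0.59. In plain levels, 0 of 13 protein genes were free of overlap with the controls at either pressure, beside 1.64% of all genes that were higher and 1.25% lower at 5 MPa and 2.41% higher and 2.08% lower at 50 MPa. mt-Rnr1 had 15799, 13919, 7919.8 and 8609 CPM in control metatarsals, 9012, 5655, 7560.3 and 6843 at 5 MPa and 8441, 4524, 6538 and 7094 at 50 MPa. The difference of mt-Rnr1 in log2 CPM, without batch terms, was -0.63 at 5 MPa (exact permutation test, two-sided, p = 0.0857, adjusted p = 0.306). At 50 MPa it was -0.77 (same permutation test, p = 0.0571, adjusted p = 0.286). Both belong to 25 such tests on single genes over the 22 libraries, where the smallest p for 4 against 4 libraries is 0.0286.

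mt-Co2 had 1419, 858, 959 and 1157 CPM in control metatarsals, 1259, 1007, 1439 and 1668 at 5 MPa and 1345, 1284, 1583 and 875 at 50 MPa. mt-Cytb had 1458, 1651, 1187 and 1472 CPM in control metatarsals, 1244, 1141, 1459.9 and 1712 at 5 MPa and 1262, 1239.9, 1629.6 and 882 at 50 MPa. The lowest value of mt-Cytb was in replicate 4 at 50 MPa, the unstranded library. mt-Rnr2 had 18680.4, 13807, 8213 and 8656 CPM in control metatarsals, 10131, 5101, 8286 and 6345 at 5 MPa and 8999, 3944, 5796 and 7689 at 50 MPa. For each of these genes the 3 groups overlapped.

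The response of hip caps was tested against that of metatarsals. At 5 MPa mt-Co2 was the 1 member called, with a difference of responses of 3.54 ± 0.55 (edgeR adjusted p = 0.0298), beside 0.0094% of all genes that were higher and 0.0188% in either direction. At 50 MPa it was again the 1 member called (2.99 ± 0.56, adjusted p = 0.0440), beside 0.0799% higher, 0.0517% lower and 0.132% in either direction. Both calls were lost with nuclear copies added and with all 24 libraries, and they held in 6 and 5 of 22 fits that left out 1 library.

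Nuclear genes of the same system had medians closer to 0 in hip caps. Of 83 nuclear subunits of oxidative phosphorylation tested, 0 were called in hip caps at 5 MPa, with a median log2 difference of 0.42, and 5 were higher at 50 MPa, with a median of 0.25, beside 3.31% of all genes that were higher. In metatarsals 0 were called at either pressure. Of 44 genes for mitochondrial DNA upkeep, transcription and RNA processing, 0 were called in hip caps at 5 MPa, and 4 were higher and 0 lower at 50 MPa, beside the same 3.31%. Fastkd5, which processes mitochondrial precursors that no tRNA flanks, was higher by 2.09 ± 0.50 on the log2 scale (edgeR adjusted p = 0.0229). Ssbp1, which binds single-stranded mitochondrial DNA, was higher by 1.10 ± 0.27 (adjusted p = 0.0265). Trmt10c, a subunit of mitochondrial RNase P, was higher by 0.86 ± 0.25 (adjusted p = 0.0476), and Tfb1m, a methyltransferase of the 12S rRNA, by 1.22 ± 0.35 (adjusted p = 0.0491). These calls and those of the 5 subunits come from the 50 MPa fit, where few genes of any kind were called without control hip cap replicate 3. Whether they hold without single libraries, with all 24 libraries or without batch terms is not given here.

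Markers of other cells varied among hip caps. Summed osteoclast markers ran from 315 to 4547 CPM in control hip caps, from 516 to 1624 at 5 MPa and from 239 to 1652 at 50 MPa, and the highest value was in control replicate 4. All 8 chondrocyte markers had negative values at 5 MPa (median -0.74, 0 called) and at 50 MPa (median -1.24, 2 lower) against control. Of 10 skeletal muscle markers 7 had positive values at 5 MPa (median 0.59, 0 called) and 8 at 50 MPa (median 1.40, 1 higher). All 5 osteoclast markers tested had positive values at both pressures (medians 1.22 and 1.53, 0 called). Macrophage markers were positive in 6 and 3 of 6 (medians 0.94 and 0.40), erythroid markers in 4 and 3 of 4 tested (1.83 and 1.55) and neutrophil markers in 6 and 0 of 6 tested (0.90 and -2.14), with 0 called. Of 6 osteoblast markers 3 and 1 were positive (medians -0.03 and -0.30), and 1 was lower at 50 MPa. The part of these cells in the mitochondrial values was not tested.

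Over the 22 libraries, the genes outside the list whose log2 CPM was most like the summed protein genes were Lamp2 (Pearson r = 0.962), Mob1b (r = 0.959) and Ube2k (r = 0.952). These correlations are descriptions over libraries that share depth, tissue and batch.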

How the data were processed

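RNA of 24 libraries was measured by RNA-seq after rRNA depletion. The authors trimmed reads with Trim Galore 0.6.5, assigned them with kallisto (version and strand setting not given in the sources used here) and used tximport to obtain gene values. The deposited values are estimated counts without normalization. The submitters' processing notes name GRCm39. Names, strands, lengths, sequences and words of 31 bases came from GENCODE M21 on GRCm38, another build than the authors'. Counts were rounded and fitted with edgeR 4.0.16 in R 4.3.3 (filterByExpr over the 6 groups, TMM, estimateDisp, robust glmQLFit) with terms for group, sequencing run and library type over 22 libraries. Tests were two-sided, adjusted by Benjamini-Hochberg over all genes, with a threshold of 0.05. Standard errors were the log2 fold change over the root of F. The fit was also run on simulated counts that held no effect of run or library type, so that check does not cover those terms.

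The first fit was kept as the main one. A second edgeR fit, with its newer quasi-likelihood method, was run after the member calls of the first were known, and its values are given under the dependence on the processing. Other alternatives were DESeq2 1.42.0, other scalings, filters, libraries and batch terms.

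Genes were named by fixed ranks of level and adjusted p per class, strand and comparison. The members and lists were chosen with earlier results of these data known. Depth was 4185263 to 25104258 counts per library. By the study's methods, hip cap samples of a group came from 4 separate mice. Nothing used here says so of metatarsals, whose spread may in part be technical. A test of the library type term, tried after the tRNA counts were seen, is not used, because it compared genes picked for that difference. The table holds 0 columns of other samples.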

Additional observations from a re-analysis of the deposited data

Results flagged for a closer look

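Of 114 groups of 4 libraries checked, 15 held a library far from the other 3 by Dixon's criterion, which chance gives in about 1 in 20 groups. Control hip cap replicate 3 and metatarsal replicate 4 at 50 MPa, both unstranded in groups that were otherwise stranded, gave 4 each. Their tRNA shares were 0.00350% and 0.00569% of counts, mt-Ts1 was at 25.4 and 24.7 CPM and mt-Ty at 5.64 and 5.77 CPM. The minus strand took 3.22% of mitochondrial counts in control hip cap replicate 3 and 2.21% in 50 MPa hip cap replicate 2, and the nuclear copies took 2.3% of protein and copy counts in metatarsal replicate 4 at 50 MPa. Single values at very low counts were mt-Ts1 at 0 CPM in control metatarsal replicate 1 and mt-Ty at 0.0413 CPM in 5 MPa metatarsal replicate 4. Copies took 0.252% in 5 MPa metatarsal replicate 1. mt-Rnr2 stood at 17586 CPM in control hip cap replicate 2, mt-Co2 at 499 CPM in control hip cap replicate 4 and mt-Nd3 at 87.9 CPM in 5 MPa hip cap replicate 1.

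The response of mt-Co2 differed between hip caps and metatarsals by the interaction test of edgeR, by 3.54 on the log2 scale at 5 MPa (adjusted p = 0.0298) and by 2.99 at 50 MPa (adjusted p = 0.0440). Both calls were lost with nuclear copies added and with all 24 libraries. They held in 6 (5 MPa) and 5 (50 MPa) of 22 fits that left out 1 library.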

How the results depend on the processing

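The members called were recounted under each alternative, with the share of all genes called in the same direction in brackets where given. A count without a share, such as the counts of 0, is no result about the members. In metatarsals 0 members were called at either pressure, and between the pressures, under every alternative run. edgeR's newer quasi-likelihood method, chosen after seeing the data and after the first fit's calls were known, called 15, 1, 6, 1 and 1, as the first method did, and all of these genes were shared. The shares of all genes that it called are not given here, so these counts do not show that the fits are alike over all genes. For the tissues (15), no batch terms called 16 (4 higher, 21.7%, and 12 lower, 22.7%), and lower were 5 with all 24 libraries (12.9%), 5 with sequencing run alone (13.6%) and 4 with stranded libraries alone (13.2%), chosen after seeing the data. For hip caps at 5 MPa (1), DESeq2 called 13 (1.92%), library sizes alone 2 (0.211%), no batch terms 10 (8 higher, 4.44%, and 2 lower, 5.09%), and all 24 libraries, added nuclear copies or stranded hip caps of all 24 libraries with copies added (also chosen after seeing the data) 0 each. For hip caps at 50 MPa (6), DESeq2 called 15 (7.24%), library sizes alone 1 (0.174%), no filter 1 (1.18%), at least 10 counts in every library 10 (8.23%), no batch terms 3 (2.07%), run alone 3 (1.93%), and all 24 libraries, hip caps in their own fit and libraries of 1 run 0 each. Between the pressures in hip caps, no batch terms called 5 (2.39%), all minus-strand tRNA genes (mt-Tn, mt-Ty, mt-Ts1, mt-Te and mt-Tp). For the interaction at 5 MPa (1), DESeq2 called 7 (0.366%), and library sizes alone, no filter, at least 10 counts, all 24 libraries, run alone and added copies 0 each. At 50 MPa (1), DESeq2 called 15 (4.01%), at least 10 counts 3 (2.73%), and library sizes alone, no filter, all 24 libraries, no batch terms, run alone and added copies 0 each. With library sizes alone the median of all genes was -0.97 for the tissues and 0.52 and 0.25 in hip caps at 5 and 50 MPa. The cause of these differences was not tested.

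Leaving out 1 library gave 4 to 17 calls for the tissues, 0 to 16 in hip caps at 5 MPa, 0 to 16 at 50 MPa and 0 to 15 for each interaction. The share of all genes called also moved widely between such fits, as given above for hip caps. These ranges are therefore no result about the members alone. The 20 pairs of libraries with equal replicate numbers had correlations of -0.183 to 0.291, with 5 over 0.1. Run, library type and group means had been removed from these small groups first, so the correlations cannot decide whether the numbers pair libraries. The main fit took the libraries as not paired. With a replicate block 13 members were called for the tissues (15.3%), 5 and 10 in hip caps at 5 and 50 MPa (0.648% and 4.41%), and 1 and 2 for the interactions (0.0094% and 0.672%).

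With counts of protein-coding genes as the denominator, the median mitochondrial share was 1.46% in control hip caps, 5.87% at 5 MPa, 3.25% at 50 MPa, and 8.15%, 7.03% and 5.77% in metatarsals at 0, 5 and 50 MPa. Depth limits the tRNA genes, with 24 to 731 counts per library.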
